A study of Mus musculus with 9 samples.

Results

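The 10 genes studied here help to set how a cell passes from G1 into S phase and were followed in cultured kidney tubule cells: the D cyclins Ccnd1, Ccnd2 and Ccnd3, the E cyclins Ccne1 and Ccne2, the Cip/Kip inhibitors Cdkn1a, Cdkn1b and Cdkn1c, and the Ink4 inhibitors Cdkn2a and Cdkn2b. They were taken by symbol from the deposited expression table, where each of the 10 had 1 row among 31167 genes, and all 10 were among the 13985 genes that averaged 0.5 FPKM or more and were tested. RNA was sequenced from mouse primary renal tubular epithelial cells of C57BL/6 kidney, with 3 libraries in each of 3 groups. Sham cells were the control. H/R cells had 6 h of hypoxia at 1.0% oxygen without glucose and then 18 h of reoxygenation in complete medium, a culture model of ischemia and reperfusion. EGR1OV cells were transfected with an overexpression plasmid for Egr1, a zinc finger transcription factor, and the study describes its Egr1 plasmid as driven by a cytomegalovirus promoter. The study describes Sham cells as untreated, so transfection itself and Egr1 cannot be told apart in EGR1OV, and the labels name no empty-vector group and list no H/R treatment for EGR1OV. They also do not say whether the 3 libraries of a group came from separate animals or cultures, so p-values measure only the spread between these libraries, which may be technical.

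G1 progression rests on a balance between these genes. D cyclins bind and activate Cdk4 and Cdk6 in response to growth signals, these kinases phosphorylate the retinoblastoma protein, and the E2f factors that are released drive Ccne1 and Ccne2, whose products activate Cdk2 and start DNA synthesis. Cip/Kip proteins (p21 from Cdkn1a, p27 from Cdkn1b, p57 from Cdkn1c) bind cyclin-kinase complexes, while Ink4 proteins (p16 from Cdkn2a, p15 from Cdkn2b) bind Cdk4 and Cdk6 directly. In the kidney, cell cycle arrest and re-entry of tubule cells are part of the response to acute injury, and p21 is a well-known member of that response.

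Sequence upstream of 2 of the loci is shown first: Ccne1 had the largest change after H/R, and Cdkn2a is 1 row of the table for transcripts from 2 start sites. RefSeq promoter entries on GRCm38.p6 matched 6 of the 10 genes (Ccnd3, Ccne1, Cdkn1a, Cdkn1b, Cdkn2a and Cdkn2b) with 9 start sites. The 250 bases before each start site were searched on both strands for an Egr1 core (GCGNGGGCG), an E2F element (TTTNNCGC) and an Sp1 box (GGGCGG), of which the Egr1 core and the Sp1 box can overlap. Printed stretches stop where an annotated exon begins. Capitals mark the Egr1 core in Ccne1 and the E2F element in Cdkn2a.
Ccne1, chr7:38107535-38107740, minus strand: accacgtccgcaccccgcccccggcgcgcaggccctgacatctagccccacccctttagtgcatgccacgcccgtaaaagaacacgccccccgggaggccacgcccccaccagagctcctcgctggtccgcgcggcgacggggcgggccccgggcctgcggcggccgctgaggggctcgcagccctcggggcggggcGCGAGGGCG
Cdkn2a, upstream start site (p19Arf transcript), chr4:89294654-89294869, minus strand: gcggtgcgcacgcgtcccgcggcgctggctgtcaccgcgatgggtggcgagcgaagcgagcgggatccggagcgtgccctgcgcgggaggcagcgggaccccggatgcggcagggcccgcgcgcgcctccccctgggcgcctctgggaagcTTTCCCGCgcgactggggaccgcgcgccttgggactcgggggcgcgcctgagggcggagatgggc
Cdkn2a, downstream start site (p16Ink4a transcript), chr4:89282193-89282442, minus strand: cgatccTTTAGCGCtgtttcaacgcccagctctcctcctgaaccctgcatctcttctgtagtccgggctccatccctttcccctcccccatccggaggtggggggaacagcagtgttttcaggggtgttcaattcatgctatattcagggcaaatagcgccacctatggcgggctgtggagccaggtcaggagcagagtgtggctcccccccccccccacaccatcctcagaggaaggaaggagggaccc

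The Egr1 core was found once, at Ccne1, where 44 bases lie between its end and the RefSeq start site and where it overlaps an Sp1 box. Across 32851 promoter windows of the same length, 4.7% held the Egr1 core, 4.28% the E2F element and 32.7% the Sp1 box. The E2F element was found at both Cdkn2a start sites and in no other of the 9 windows. The Sp1 box was found at Ccne1 (4 matches), at the Cdkn2a upstream site (2), at Cdkn1b (1), at both Ccnd3 sites (2 and 1) and at the second Cdkn1a site (2). These are matches of letters and not measured binding.

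The libraries were of similar depth, with 16183601 to 18384002 reads recovered from the steps of the FPKM values (fragments counted per exon length and library depth). Replicates lay close together, with a median coefficient of variation of 3.50% in Sham, 3.84% with H/R and 3.88% with EGR1OV over 7588 genes at 5 FPKM or more. A single short RNA gene, Gm23935, took 6.53% to 7.34% of all FPKM in Sham 3, H/R 2 and H/R 3 and 0.541% to 3.27% in the others, and the results without each library in turn are given where they change a call. Egr1, the check of the labels, was at 6.40 ± 0.443 FPKM in Sham, 7.88 ± 0.599 with H/R and 42.6 ± 2.84 with EGR1OV (SD, n = 3 each). Of the tubule markers, Krt8 was the highest at 1003 to 1026 FPKM in Sham, whereas Slc34a1, which defines the proximal tubule, was at or near 0 in all 9 libraries, at most 0.0362 FPKM. The 12 leukocyte markers summed to 165 to 174 FPKM in Sham, 143 to 151 with H/R and 36.6 to 41.1 with EGR1OV, and the 10 of them that were tested all fell in EGR1OV. The 8 endothelial markers summed to 12.6 to 13.4 FPKM in Sham, 13.5 to 14.1 with H/R and 9.49 to 10.01 with EGR1OV, and the 8 fibroblast markers to 36.5 to 38.4, 44.4 to 45.1 and 41.5 to 46.1 FPKM. The 12 tubule markers also moved, from 2012 to 2050 FPKM in Sham to 1868 to 1951 in H/R and 1312 to 1422 in EGR1OV. The part of these other cells in the results below was not tested, and in bulk RNA fewer cells of a type and less RNA per cell cannot be told apart.

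Levels were compared between genes on the FPKM scale, which is per length. In Sham cells Cdkn1a stood far above the others at 242 ± 2.04 FPKM (SD, n = 3), rank 132 among the 13985 genes tested. It was followed by Cdkn2b at 64.1 ± 2.46 FPKM, Ccnd1 at 55.1 ± 1.58, Ccnd2 at 43.7 ± 0.857 and Cdkn2a at 31.0 ± 3.06. The lower part of the order was Cdkn1b at 12.0 ± 0.480 FPKM, Ccnd3 at 8.01 ± 0.213, Ccne1 at 5.41 ± 0.384, Ccne2 at 3.02 ± 0.257 and Cdkn1c at 1.92 ± 0.540. Each of these neighbours in Sham was separated without overlap of the 3 libraries. In H/R the order was the same but for the last places, where Cdkn1c at 2.48 ± 0.0516 FPKM lay above Ccne2 at 2.13 ± 0.0647. In EGR1OV Cdkn1b at 10.5 ± 0.928 FPKM and Ccnd3 at 10.2 ± 0.366 overlapped, and the order was otherwise that of Sham.

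**Figure D1:**
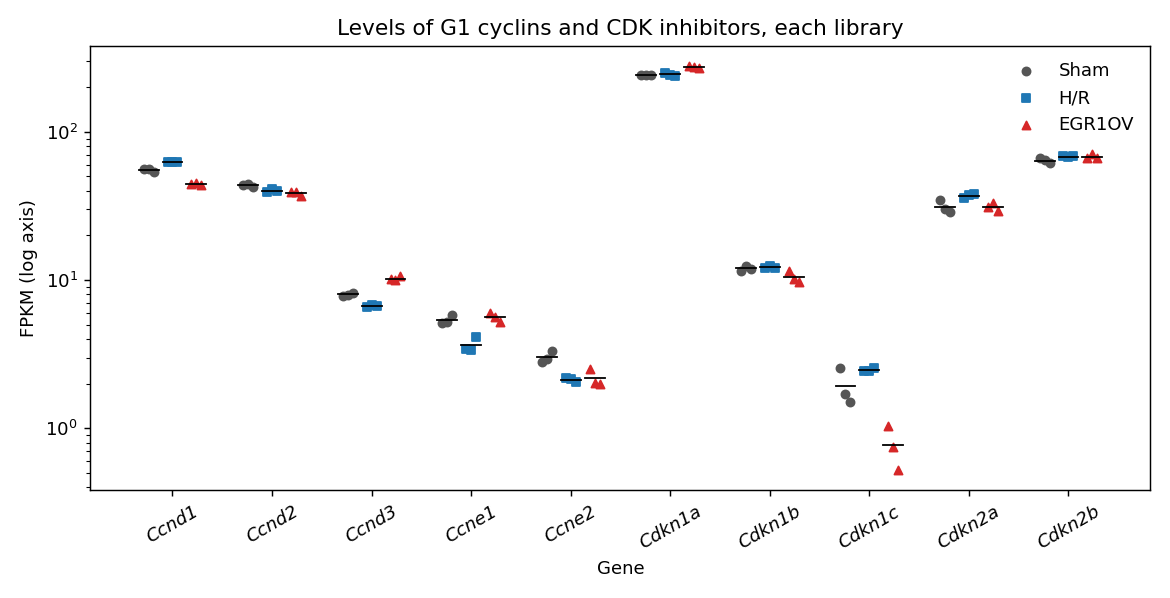
FPKM of each gene on a log axis in each of the 9 libraries (points) with the group mean (black line). Cdkn1a lies between 237 and 277 FPKM in all libraries, and Cdkn1c in EGR1OV, between 0.525 and 1.03 FPKM, lies below its libraries of the other groups.

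Changes are given on the log2(FPKM + 1) scale, which understates the change of low genes. "Rose" and "fell" are used where the limma adjusted p over all 13985 genes was below 0.05, and "called" where the change was in addition at least 1.3-fold for EGR1OV or 1.2-fold for H/R, each against Sham. The exact two-sided permutation test of 3 libraries against 3 cannot go below p = 0.1, and it gave 0.1 wherever the libraries of both groups did not overlap.

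The comparison of EGR1OV with Sham asked how the G1 genes responded to the Egr1 plasmid. In EGR1OV cells Ccnd1, Ccnd2, Ccne2, Cdkn1b and Cdkn1c fell, Ccnd3 and Cdkn1a rose, and Ccne1, Cdkn2a and Cdkn2b did not pass the test. Mean FPKM ranged from 0.40 times the Sham level for Cdkn1c to 1.28 times for Ccnd3. Thus 7 of 10 genes had an adjusted p below 0.05, where 45.9% of all genes did, and 1 of 10 was called, against 16.4% of all genes. That gene was lower, as were 6.51% of all genes by the same rule, and none of the 10 was called higher, where 9.87% of all genes were. Of the 10, 8 did not overlap between the groups, against 55.7% of all genes. The median absolute log2 change was 0.18 for the 10 genes and 0.16 for all genes tested, so as a set they moved about as much as the rest of the transcriptome.

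How the same genes responded to hypoxia and reoxygenation was read from H/R and Sham. After H/R, Ccnd2, Ccnd3, Ccne1 and Ccne2 fell, Ccnd1 and Cdkn2a rose, and Cdkn1a, Cdkn1b, Cdkn1c and Cdkn2b did not pass the test. The 2 called genes were the E cyclins, with Ccne1 at 0.67 times and Ccne2 at 0.71 times the Sham level. Here 6 of 10 genes had an adjusted p below 0.05, where 11.7% of all genes did, 2 of 10 were called, against 4.25%, and 7 of 10 did not overlap, against 33.6%. Both called genes were lower, where 2.65% of all genes were called lower and 1.60% higher. The median absolute log2 change was 0.20 for the 10 genes and 0.087 for all genes tested. The number of the 10 genes below 0.05 went from 3 to 6 over the alternatives.

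EGR1OV was set against H/R directly, which tests whether the responses differ. Ccnd1, Cdkn1b, Cdkn1c and Cdkn2a were lower and Ccnd3, Ccne1 and Cdkn1a were higher in EGR1OV, 7 of 10 genes where 51.0% of all genes had an adjusted p below 0.05. At 1.3-fold, Ccnd1, Ccnd3, Ccne1 and Cdkn1c were called, 4 of 10 against 18.9% of all genes. They were 2 higher and 2 lower, against 11.9% and 6.94% of all genes. Of the 10 genes, 8 did not overlap, against 58.6% of all genes. The comparisons with Sham share the 3 Sham libraries, so their values are set side by side below and not correlated.

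**Figure D2:**
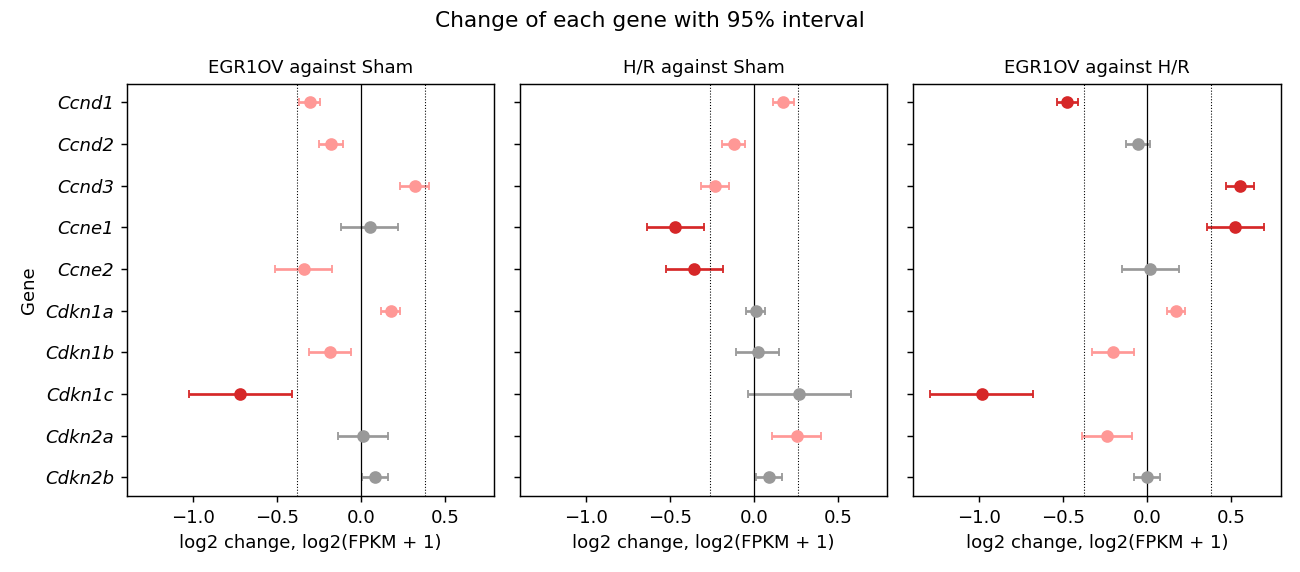
Log2 change of each gene (point) with its 95% interval from the limma fit, for EGR1OV against Sham, H/R against Sham and EGR1OV against H/R. Dark red marks called genes, light red an adjusted p below 0.05 without the fold threshold (dotted lines) and grey the rest, and Ccnd1 and Ccnd3 lie on opposite sides of 0 in every panel.

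Ccnd1 encodes cyclin D1, the D cyclin most often used as a readout of growth signalling. Its Sham libraries were at 55.8, 56.3 and 53.3 FPKM, the H/R libraries at 62.3, 62.2 and 62.4, and the EGR1OV libraries at 44.3, 45.4 and 43.5. The 3 groups did not overlap, with H/R highest and EGR1OV lowest. The gene (ENSMUSG00000070348, chromosome 7 from 144929931 to 144939925) was covered by 3451 to 5383 reads per library. It fell in EGR1OV by 0.30 (log2, SE 0.028, limma adjusted p 1.93e-05) and rose after H/R by 0.17 (SE 0.028, limma adjusted p 0.00595). Directly, EGR1OV was below H/R by a log2 difference of -0.48 (SE 0.028, limma adjusted p 7.65e-07), a ratio of means of 0.71. It shares 1100 exon bases with LTO1 on the opposite strand, which was at 3.73 FPKM on average, and the sources used here do not say whether counting used strand.

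Ccnd3 encodes cyclin D3, and its values ran the other way. Values in the Sham libraries were 7.82, 7.97 and 8.24 FPKM, those in H/R 6.54, 6.77 and 6.71, and those in EGR1OV 10.1, 9.94 and 10.7. Again the groups did not overlap, but here EGR1OV was highest and H/R lowest. Ccnd3 (ENSMUSG00000034165, chromosome 17 from 47505051 to 47599691, 929 to 1573 reads) rose in EGR1OV by 0.32 (SE 0.037, limma adjusted p 0.000103) and fell after H/R by 0.23 (SE 0.037, limma adjusted p 0.00628). EGR1OV lay above H/R by 0.55 (SE 0.037, limma adjusted p 2.31e-06). Both changes against Sham were just under the fold thresholds. Ccnd3 shares 361 exon bases with Bysl on the opposite strand, itself at 13.2 FPKM and with log2 changes of 0.15 in EGR1OV and 0.025 after H/R.

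Ccnd2 encodes cyclin D2. For Sham the libraries gave 44.0, 44.4 and 42.8 FPKM, those of H/R 39.4, 40.9 and 39.9, and those of EGR1OV 39.4, 39.1 and 37.0. Both treated groups lay below Sham without overlap, and EGR1OV lay below H/R by a margin that vanishes at this rounding. Ccnd2 (ENSMUSG00000000184, chromosome 6 from 127125162 to 127152193) fell in EGR1OV by 0.18 (SE 0.031, limma adjusted p 0.0013). After H/R it fell by 0.12 (SE 0.031, limma adjusted p 0.0363), which passed the threshold in 8 of 18 alternatives and was lost when any H/R or Sham library was left out. The fall was also lost after median-ratio scaling (limma adjusted p 0.116) and quantile normalization (0.0811), without the trend (0.0767) and with no filter on low values (0.0675). EGR1OV and H/R differed by -0.056 (95% interval -0.13 to 0.015), and after median-ratio scaling this difference was -0.12 with a limma adjusted p of 0.00723, and after quantile normalization -0.15 with 0.00402.

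Together the D cyclins kept nearly the same summed level after H/R and a lower one in EGR1OV. Their summed FPKM was 107 ± 2.26 in Sham, 109 ± 0.762 with H/R and 93.2 ± 1.75 with EGR1OV (SD, n = 3). What differed more was the make-up of the sum, a measure chosen after the single genes were seen. Ccnd1 made up 51.6% ± 0.403 of the summed D cyclin FPKM in Sham, 57.1% ± 0.477 with H/R and 47.7% ± 0.436 with EGR1OV (SD, n = 3). The share of Ccnd3 was 7.50% ± 0.347 in Sham, 6.12% ± 0.0704 with H/R and 11.001% ± 0.604 with EGR1OV. Both shares were separated between all 3 groups, with an exact permutation p of 0.1 in each comparison, the smallest possible. The ratio of Ccnd1 to Ccnd3 was 7.13, 7.07 and 6.47 in the Sham libraries, 9.53, 9.19 and 9.29 in H/R and 4.37, 4.57 and 4.09 in EGR1OV. This ratio is taken within a library, so it does not depend on scaling between libraries.

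**Figure D3:**
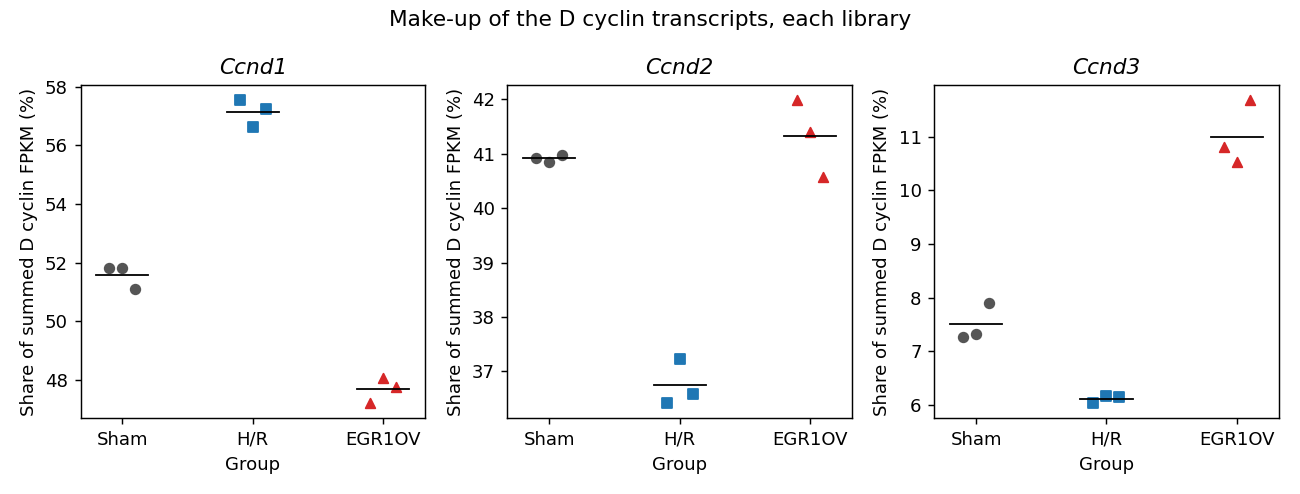
Share of each D cyclin in the summed FPKM of Ccnd1, Ccnd2 and Ccnd3, in percent, per library (points) with the group mean (line); the vertical axes do not start at 0. Ccnd1 has its highest share in H/R and Ccnd3 in EGR1OV, and Ccnd2 overlaps between Sham and EGR1OV.

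Ccne1 encodes cyclin E1, a partner of Cdk2 at the start of S phase. The Sham libraries were at 5.14, 5.24 and 5.85 FPKM, the H/R libraries at 3.41, 3.37 and 4.11, and the EGR1OV libraries at 6.02, 5.68 and 5.25. H/R lay below both other groups, which overlapped each other. Ccne1 (ENSMUSG00000002068, chromosome 7 from 38097984 to 38107534, 147 to 266 reads) fell after H/R by 0.47 (SE 0.075, limma adjusted p 0.00595). It was called in each of the 17 alternatives that tested it at the same fold threshold, and not at 2-fold. In EGR1OV the change against Sham was 0.053 (95% interval -0.12 to 0.22, limma adjusted p 0.604). This is the gene with the Egr1 core printed above. EGR1OV was above H/R by 0.52 (SE 0.075, limma adjusted p 0.000329).

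Ccne2 encodes cyclin E2 and was the lowest of the cyclins. In Sham the libraries were at 2.82, 2.94 and 3.31 FPKM, in H/R at 2.19, 2.15 and 2.06, and in EGR1OV at 2.52, 2.03 and 1.99. Both treated groups lay below Sham without overlap. Ccne2 (ENSMUSG00000028212, chromosome 4 from 11191351 to 11204779, 116 to 191 reads) fell after H/R by 0.36 (SE 0.075, limma adjusted p 0.0182) and in EGR1OV by 0.34 (SE 0.075, limma adjusted p 0.00486). The call after H/R was lost without H/R 3 (limma adjusted p 0.0613) or without Sham 3 (0.064), and with no filter on low values (0.0543). In EGR1OV the change was under the 1.3-fold threshold and passed it in 4 of the 17 alternatives that kept this threshold, among them the one without EGR1OV 1 (log2 -0.42). EGR1OV and H/R differed by 0.016 (95% interval -0.15 to 0.19). Ccne2 shares 609 exon bases with Ints8 on the opposite strand, which was at 8.03 FPKM and changed by 0.0071 in EGR1OV and 0.027 after H/R.

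The E cyclins thus parted in EGR1OV. The ratio of Ccne1 to Ccne2 was 1.82, 1.78 and 1.77 in the Sham libraries, 1.56, 1.57 and 1.99 in H/R and 2.39, 2.80 and 2.64 in EGR1OV. EGR1OV was above both other groups without overlap, while Sham and H/R overlapped. Summed, the E cyclins were at 8.43 ± 0.640 FPKM in Sham, 5.77 ± 0.356 with H/R and 7.83 ± 0.656 with EGR1OV (SD, n = 3).

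Cdkn1a encodes p21, the Cip/Kip inhibitor that p53 induces. Values in the Sham libraries were 243, 240 and 244 FPKM, those in H/R 250, 243 and 237, and those in EGR1OV 277, 273 and 271. EGR1OV lay above both other groups, which overlapped. Cdkn1a (ENSMUSG00000023067, chromosome 17 from 29090979 to 29100722) rose in EGR1OV by 0.18 (SE 0.024, limma adjusted p 0.000295), a ratio of means of 1.13. After H/R the change was 0.008 (95% interval -0.047 to 0.063), so at 18 h of reoxygenation a change of 1.2-fold lay outside the interval. The ratio of Cdkn1a to Ccnd1 within a library was 4.396 ± 0.156 in Sham, 3.91 ± 0.105 with H/R and 6.17 ± 0.138 with EGR1OV (SD, n = 3), with no overlap between groups.

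Cdkn1b encodes p27, an inhibitor controlled mainly through its breakdown. For Sham the libraries gave 11.6, 12.5 and 12.0 FPKM, those of H/R 12.1, 12.4 and 12.1, and those of EGR1OV 11.5, 10.2 and 9.69. EGR1OV was lower than both other groups without overlap, though EGR1OV 1 came close to the lowest Sham library. Cdkn1b (ENSMUSG00000003031, chromosome 6 from 134920401 to 134925513, 742 to 1036 reads) fell in EGR1OV by 0.18 (SE 0.056, limma adjusted p 0.0233). This was lost without EGR1OV 2, EGR1OV 3, Sham 2 or Sham 3, with limma adjusted p from 0.0534 to 0.0812, and with no filter on low values (0.0508). After H/R the change was 0.02 (95% interval -0.11 to 0.15). EGR1OV was below H/R by a log2 difference of -0.20 (SE 0.056, limma adjusted p 0.0132).

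Cdkn1c encodes p57, a Cip/Kip inhibitor expressed from an imprinted locus. The Sham libraries were at 2.54, 1.72 and 1.52 FPKM, the H/R libraries at 2.45, 2.45 and 2.54, and the EGR1OV libraries at 1.03, 0.750 and 0.525. EGR1OV lay below every other library, and Sham 1 lay among the H/R libraries. The gene (ENSMUSG00000037664, chromosome 7 from 143458339 to 143461050) rests on few reads, 51 to 85 in Sham, 81 to 92 with H/R and 18 to 35 with EGR1OV, all above a floor of 3 reads. Cdkn1c fell in EGR1OV by 0.72 (SE 0.14, limma adjusted p 0.00215), the only one of the 10 genes called in that comparison. It was called in each of the 17 alternatives that tested it at the same fold threshold, and not at 2-fold. The ratio of means was 0.40, and with a pseudocount of 0.1 the log2 change was -1.23. It shares 625 exon bases with the antisense gene Gm44732, whose level was not analysed here. After H/R the change was 0.27 (95% interval -0.039 to 0.58, limma adjusted p 0.234), and it was 0.41 without Sham 1 and 0.17 without Sham 3. EGR1OV was below H/R by a log2 difference of -0.99 (SE 0.14, limma adjusted p 0.000266).

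Cdkn2a and Cdkn2b lie next to each other on chromosome 4, 11645 bases apart. Cdkn2a (ENSMUSG00000044303, from 89274471 to 89294653, 555 to 805 reads) gives p16Ink4a and p19Arf from the start sites printed above, and its single FPKM value cannot tell these apart. In Sham the libraries were at 34.5, 29.95 and 28.7 FPKM, in H/R at 36.0, 37.4 and 37.9, and in EGR1OV at 31.2, 33.0 and 29.5. H/R lay above both other groups, which overlapped. Cdkn2a rose after H/R by 0.25 (SE 0.065, limma adjusted p 0.0394), under the 1.2-fold threshold. This passed 0.05 in 8 of 18 alternatives, and it was lost without Sham 2, Sham 3, EGR1OV 1 or any H/R library (limma adjusted p 0.057 to 0.113), and with the replicate number as a block (0.0608). It was called at 0.33 without Sham 1, at 0.29 after median-ratio scaling and at 0.27 after quantile normalization. EGR1OV was below H/R by a log2 difference of -0.24 (SE 0.065, limma adjusted p 0.0128), and against Sham it changed by 0.012 (95% interval -0.14 to 0.16).

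Cdkn2b (ENSMUSG00000073802, from 89306289 to 89311032) encodes p15, which is known to respond to Tgf-beta. Values in the Sham libraries were 66.3, 64.4 and 61.4 FPKM, those in H/R 68.7, 67.1 and 68.7, and those in EGR1OV 66.4, 70.5 and 67.0. H/R and EGR1OV both lay above the highest Sham library, by margins smaller than the spread of the Sham libraries. Neither change passed the test, at 0.084 in EGR1OV (95% interval 0.0066 to 0.16, limma adjusted p 0.0732) and 0.089 after H/R (95% interval 0.012 to 0.17, limma adjusted p 0.129). The EGR1OV value passed without Sham 1 (0.11, limma adjusted p 0.041) and was 0.055 without Sham 3, and the H/R value passed after median-ratio scaling (0.13, limma adjusted p 0.0448). EGR1OV and H/R differed by -0.0049 (95% interval -0.082 to 0.072).

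The genes whose pattern was most like that of the leading members were found by Pearson correlation of log2(FPKM + 1) over the 9 libraries among genes at 5 FPKM or more, a description that mostly follows the group means. For Cdkn1c these were Snx4 (r = 0.983), Wnt7a (0.981) and Brd3 (0.978). Wnt7a went from 69.5 ± 2.84 FPKM in Sham to 73.4 ± 1.24 with H/R and 57.2 ± 1.41 with EGR1OV (SD, n = 3). For Ccne1 they were Ptgs1 (r = 0.965), Ncapd2 (0.956) and Stard3nl (0.955). Ncapd2, a condensin subunit, went from 8.97 ± 0.372 FPKM in Sham to 7.02 ± 0.259 in H/R and 8.57 ± 0.138 in EGR1OV.

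Other genes that act on the cyclin-dependent kinases were counted next. Of all genes, 45.9% passed the test in EGR1OV and 11.7% after H/R, and 16.4% and 4.25% were called. The first list held 10 kinases, kinase regulators and inhibitors (Cdk2, Cdk4, Cdk6, Cdk7, Ccnh, Mnat1, Cdc25a, Cdkn2c, Cdkn2d and Cdkn3). In EGR1OV 3 of them fell and none rose, with a list median of -0.12 against 0.017 for all genes, and none was called. After H/R none of the 10 passed the limma test, with a list median of -0.014 against -0.03 for all genes, while 3 of 10 were below an unadjusted p of 0.05 and 1 passed with voom on recovered reads. Of 15 genes that control the turnover of cyclins and inhibitors, 4 fell in EGR1OV and 2 after H/R, and none rose. Cks1b, a cofactor in the breakdown of p27, was the one called, from 48.0 ± 2.04 FPKM in Sham to 40.7 ± 1.40 with H/R and 36.2 ± 2.06 with EGR1OV (SD, n = 3), with a log2 change of -0.40 in EGR1OV (limma adjusted p 0.000116).

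Among 13 retinoblastoma and E2f family genes, Rb1 and E2f1 were called. Rb1, the pocket protein that D cyclin kinases phosphorylate, fell in EGR1OV from 8.42 ± 0.195 to 4.69 ± 0.108 FPKM (log2 -0.73, limma adjusted p 2.52e-06) and was at 8.79 ± 0.637 FPKM after H/R (log2 0.053, limma adjusted p 0.528). E2f1, which drives Ccne1, fell after H/R from 3.55 ± 0.201 to 2.102 ± 0.371 FPKM (log2 -0.56, limma adjusted p 0.00664) and was at 4.13 ± 0.347 in EGR1OV (log2 0.17, limma adjusted p 0.153). In the whole list 1 gene rose and 3 fell in each comparison with Sham. Of all genes, 45.9% passed the test in EGR1OV and 11.7% after H/R, and 16.4% and 4.25% were called. Of 12 genes read out in S phase and mitosis, 10 dropped in H/R and none rose, where 11.7% of all genes passed the test and 4.25% were called. The list median was -0.33 against -0.03 for all genes. Mcm5, Mcm2 and Ccnb2 were named for the size of their change in any of the 3 comparisons. Their log2 changes after H/R were -0.58, -0.49 and -0.36. In EGR1OV 2 of these 12 rose and 1 fell, with a median of 0.042.

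The p53 list holds the p53 gene Trp53 and its regulators, together with genes that share p53 as an inducer with Cdkn1a. In EGR1OV 9 of its 17 genes rose and 2 fell, with a median of 0.096, and none was called, where 45.9% of all genes had an adjusted p below 0.05 and 16.4% were called. In H/R 3 fell and none rose, Sesn2 and Fas being called at -0.29 and -0.28. After H/R 11.7% of all genes passed the test and 4.25% were called. Bax, which promotes apoptosis, rose in EGR1OV from 27.9 ± 1.67 to 33.0 ± 0.526 FPKM (log2 0.23, limma adjusted p 0.00673). Of 12 regulators of the Cdkn2a-Cdkn2b locus, mostly Polycomb genes, 1 rose in EGR1OV. In that comparison 4 of 12 were below an unadjusted limma p of 0.05, and 4 passed with voom on recovered reads. None passed the limma test after H/R, where none was below an unadjusted p of 0.05 or passed with voom (0 of 12 each).

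Of the 8 lists, growth inputs to the D cyclins had the largest median change in EGR1OV. Of the 16 genes of this list that were tested, 13 rose and 2 fell in EGR1OV, where 45.9% of all genes passed, with a median of 0.35 against 0.017 for all genes. After H/R 5 of the 16 rose and none fell, where 11.7% of all genes passed, the median being 0.094 against -0.03. Egr1 itself is in the list and was raised by design in EGR1OV. Fos, an immediate early gene, rose in EGR1OV from 1.67 ± 0.134 to 4.55 ± 0.418 FPKM (log2 1.06, limma adjusted p 1.57e-06), and Mycn fell from 2.98 ± 0.183 to 1.41 ± 0.371 (log2 -0.73, limma adjusted p 0.000468). In the list of 16 growth-arrest inputs 7 rose and 3 fell in EGR1OV, and 3 rose and 2 fell after H/R. This list also holds Id genes, which are known to oppose arrest, so these counts do not give a direction of arrest. Irf1, an interferon-induced factor, rose from 6.09 ± 0.513 to 21.2 ± 0.914 FPKM in EGR1OV (log2 1.65, limma adjusted p 1.94e-08), Klf4 from 4.41 ± 0.291 to 7.19 ± 0.544 (log2 0.60, limma adjusted p 4.59e-05), and Id2 fell from 14.7 ± 0.535 to 10.9 ± 1.31 (log2 -0.41, limma adjusted p 0.00237).

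**Figure D4:**
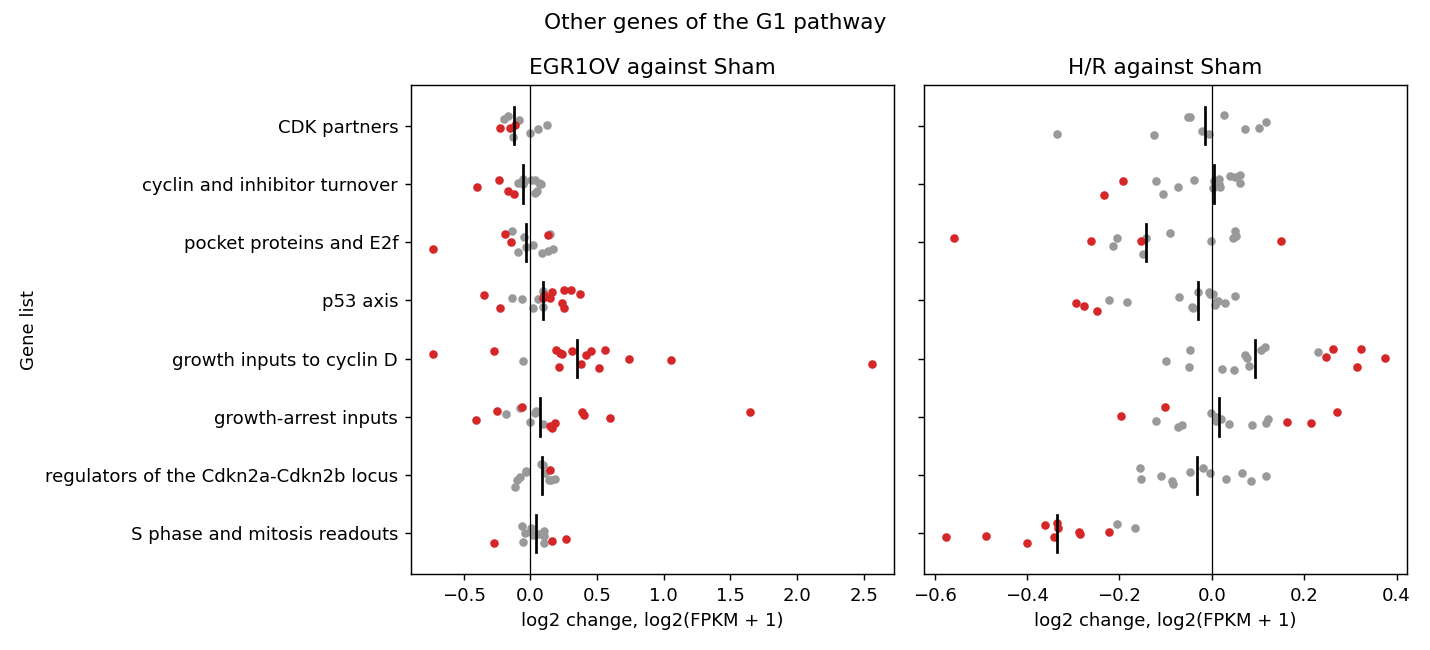
Log2 change of each gene (point) in the 8 lists of other G1 pathway genes, for EGR1OV and for H/R against Sham, with the list median (black bar) and red for an adjusted p below 0.05. The 12 S phase and mitosis genes all lie below 0 after H/R, and the horizontal axes of the panels differ.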

How the data were processed

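RNA from 9 libraries was sequenced by a company on the Illumina NovaSeq. The authors deposited 1 table of FPKM with a column per library. The submitters' processing notes name Bowtie2 2.2.3, HISAT2 2.1.0, TopHat2 and mm9, without roles. Gene positions in the table were equal to GENCODE M21 (GRCm38) in 94.6% of rows, so the coordinates given, which are those of the table, are on GRCm38. The counter and any use of strand are not given in the sources used here. Columns of database annotation were not used, and 26 symbols turned into dates were restored.

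Groups came from sample titles. Values were log2(FPKM + 1) of genes averaging 0.5 FPKM or more, fitted over all 9 libraries with limma 3.58.1 (R 4.3.3, eBayes with trend, two-sided, Benjamini-Hochberg over 13985 genes). The fold thresholds against Sham follow the study, and that of EGR1OV against H/R was chosen here. Reads were recovered from FPKM with M21 exon lengths, and 94.0% of 162897 low to moderate values were whole within 0.02. Reads of Cdkn1a and Cdkn2b did not come out whole and are not given. Floors cover counting error only. Replicate pairs differed beyond sampling noise (chi-square of 2.03 to 3.83 per degree of freedom), and none was merged. The members and lists were chosen with earlier results of these data known. All 10 members were named, and of each pathway list up to 3 called genes by size of change. The code was tested on simulated libraries. The alternatives were another pseudocount, other filters, scalings, variance models and fold thresholds, a replicate block, fewer groups, each library left out, and, added after seeing the data, voom on recovered reads. Python 3.11.15 with scipy 1.17.1 was used for the exact tests.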

Additional observations from a re-analysis of the deposited data

How the results depend on the processing

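Over the 18 alternatives that kept the fold thresholds, 521 of 531 values of a single gene in a comparison kept their side of the call, 3 lost it, 7 gained it and no called change reversed. Most of the 521 were of genes that were not called and stayed so, and reversal was counted only for called changes. Some uncalled changes near 0 did change sign, most often that of Cdkn2a in EGR1OV against Sham, in 5 of 18 alternatives. The number of the 10 genes called was 1 in EGR1OV and 2 in H/R, both against Sham, and 4 between EGR1OV and H/R. With no fold threshold it was 7, 6 and 7, and at 2-fold it was 0 in each, where 484, 11 and 489 genes in all were called. With a mean of at least 5 FPKM, which drops Ccne1, Ccne2 and Cdkn1c, it was 0, 0 and 2. For EGR1OV against Sham it was 2 with a pseudocount of 0.1, after quantile normalization and with voom on recovered reads, through Ccne2. For H/R against Sham it was 1 with no filter on low values, without Ccne2, and 3 with either median-ratio or quantile scaling, with Cdkn2a called higher. Leaving out 1 library gave 1 to 2 for EGR1OV and 1 to 3 for H/R against Sham (1 without H/R 3 or Sham 3), and 4 throughout between EGR1OV and H/R. The replicate block left the counts at 1, 2 and 4. Same-numbered libraries correlated in their deviations by -0.195 to 0.263, and Sham 1 correlated better with EGR1OV 2 (0.112) than with EGR1OV 1 (-0.038), so the numbers were not taken as pairs.

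Over all genes, 2291, 594 and 2641 were called in these comparisons, and with no fold threshold 6417, 1635 and 7135. At 5 FPKM or more the counts were 1315, 372 and 1520, and voom called 995 for H/R. The higher part was 1381, 224 and 1670 genes, against 1059 of 2306, 311 of 550 and 1112 of 2618 after quantile normalization, and 319 of 548 and 1307 of 2564 in the last pair of comparisons after median-ratio scaling. For the genes with few reads, Cdkn1c above all, depth limits the precision.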

Other observations

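Among the values not used in a comparison, the ratio of Ccnd1 to Ccnd2 within a library was 1.26 ± 0.0117 in Sham, 1.56 ± 0.0308 with H/R and 1.15 ± 0.0268 with EGR1OV (SD, n = 3), with no overlap between groups. The summed level of Cdkn2a and Cdkn2b was 95.1 ± 5.38 FPKM in Sham, 105 ± 1.17 with H/R and 99.2 ± 3.81 with EGR1OV, and that of the Cip/Kip genes, nearly all of it Cdkn1a, was 256 ± 1.78, 258 ± 6.36 and 285 ± 4.25 FPKM. These sums and ratios were chosen after the single genes were seen.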
